A study of Homo sapiens with 4 samples.

Results

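Cytosolic ribosomal protein genes encode the proteins of the large and small subunits of the ribosome outside mitochondria. The members described here were the 86 genes, of 36602 in the count table, whose symbols follow the RPL and RPS naming pattern or are RPLP0, RPLP1, RPLP2 or RPSA. They comprise 52 genes of the large subunit and 34 of the small subunit, and both subunits include paralogues of the common proteins, most of them marked by a final L or L1 in the symbol. The pattern leaves out 4 genes that also encode ribosomal proteins or ribosome-bound proteins, among them FAU, RACK1 and RPL36AL. Of the 86 members, 82 had a mean of at least 20 CPM (counts in each 1e6 unique molecular identifiers, UMIs, of a sample), and 4 had a mean under 1 CPM, among them RPL3L and RPL10L. All values below are on the 82 unless stated.

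The cells were OVCAR5, a human ovarian carcinoma line, kept in culture with or without supernatant taken from tumor cells grown together with T cells. Per the labels, cultures received undiluted supernatant, supernatant diluted 5, 25, 125 or 625 times, or none, for 2, 6, 12 or 24 h, which makes 24 conditions with 1 culture each. All cultures were combined and read as single cells by droplet-based 3′ RNA sequencing, with 2 gene-expression and 2 hashtag libraries behind 1 deposited matrix. Each culture carried a pair of 10 antibody-bound hashtags (HTO1 to HTO10), and 24 tag pairs were in use. Which tag pair marks which culture is not given in the sources used here, so no conditions were compared. Tag pairs are named by their hashtags, and comparisons with a test were made between classes of cells within the same tag pair.

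Ribosomal proteins are made in near-equal amounts because each ribosome holds a single copy of most of them. In mammals their mRNAs typically begin with a run of pyrimidines, the 5′ terminal oligopyrimidine tract, which lets mTOR signalling switch their translation on and off together with that of several translation factors. Production of new ribosomes also needs nucleolar assembly factors, such as NPM1 and NCL, whose genes are known targets of MYC.

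The start-site sequences are shown because most matched members have the tract at their start site and several of the paralogues described below do not. Each window runs from 10 bases before the start site to 20 bases from it, 5′ to 3′ on the gene's strand, from RefSeq promoters on GRCh38.p14. Capitals mark a tract that begins at the start site, a C followed by at least 4 bases that are each C or T.
RPLP1: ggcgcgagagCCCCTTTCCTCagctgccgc
RPS14: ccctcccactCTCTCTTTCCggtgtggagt
RPS24: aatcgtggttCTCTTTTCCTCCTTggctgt
RPL22: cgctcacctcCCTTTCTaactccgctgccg
RPL22L1: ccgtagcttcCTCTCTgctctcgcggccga
RPL26: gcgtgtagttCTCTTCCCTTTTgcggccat
RPL26L1: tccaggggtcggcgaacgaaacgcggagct
RPS27: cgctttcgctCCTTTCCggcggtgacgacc
RPS27L: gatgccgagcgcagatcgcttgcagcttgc
RPL7L1: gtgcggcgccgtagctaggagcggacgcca
RPS26: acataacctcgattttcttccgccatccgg

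The windows lie at chr15:69452808-69452837 (RPLP1), chr5:150449720-150449749 (RPS14, minus strand), chr10:78033853-78033882 (RPS24), chr1:6199576-6199605 (RPL22, minus strand) and chr3:170870176-170870205 (RPL22L1, minus strand). Those of the remaining genes lie at chr17:8383174-8383203 (RPL26, minus strand), chr5:172958719-172958748 (RPL26L1), chr1:153990752-153990781 (RPS27), chr15:63157458-63157487 (RPS27L, minus strand), chr6:42879606-42879635 (RPL7L1) and chr12:56041908-56041937 (RPS26). A promoter was matched by symbol for 69 of the 86 members. The tract stood at the start site in 44 of these 69 (63.8%), against 1104 of all 27305 promoters in the table (4.04%). It was present in 2 of 7 matched paralogues (28.6%) and in 42 of the 62 other members (67.7%). RPL22L1 had the tract, while none began within 5 bases of the listed start of RPL26L1, RPS27L, RPL7L1 or RPS26. In the RPS26 window a tract of this form begins just past that limit. The gene starts of RPS26, RPS27L and RPL22L1 in GENCODE 29 lie upstream of their windows. Whether these genes have or lack a tract thus depends on the start site used. The search covered the gene's strand only, and a match is a description of these letters.

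The matrix held 10660 barcodes, of which 6408 (60.1%) were kept as cells with 1000 or more genes and a mitochondrial share of up to 20%. A clear tag pair was found for 5298 of them (82.7%), or 137 to 272 cells and 1863154 to 3904112 UMIs in each tag pair. A count of 3 UMIs, the limit that a count of 0 allows, corresponded to 0.768 to 1.61 CPM. The tag pair HTO3/HTO9 stood apart, with the shallowest cells (median 9389 UMIs) and the most mitochondrial RNA (median 13.8% of a cell's UMIs), and values without it are given beside the main results. The epithelial keratin gene KRT18 averaged 1589 CPM over the tag pairs. The other epithelial markers checked averaged 706 (KRT8), 520 (KRT7), 175 (KRT19), 83.4 (CLDN4), 46.8 (EPCAM), 2.26 (CDH1) and 0.818 CPM (MUC1). The T cell markers CD3E, CD3G, CD2 and PTPRC had 0 UMIs, and all 10 T cell markers summed to at most 6.98 CPM in any tag pair. Ribosomal protein genes have processed pseudogenes and close paralogues, so the level of a single gene is uncertain where reads could be shared. Intervals on counts cover counting error only.

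The summed level of the ribosomal protein genes was close to constant over the tag pairs. It was highest in HTO2/HTO9 at 195692 CPM, or 19.6% of all UMIs, had a median of 183920 CPM, and was lowest in HTO3/HTO9 at 176283 CPM, or 17.6%. The highest tag pair was thus 1.11 times the lowest (95% conditional binomial interval 1.106 to 1.114), and 1.10 times without HTO3/HTO9. Over the same tag pairs, genes induced by interferon gamma ran up to 23486 CPM from 1039 CPM, a 22.6-fold range that was 18.6-fold without HTO3/HTO9, and G2/M genes up to 8919 CPM from 2328 CPM, a 3.83-fold range that was 2.30-fold without HTO3/HTO9. A CPM is a share of all UMIs, so a change in the ribosomal protein genes cannot be told apart from an opposite change in the rest of the cell's RNA.

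Translation factors, which work on the ribosome, had a narrow summed range, slightly wider than that of the ribosomal proteins. The 19 factors, led by the elongation factor gene EEF1A1 (mean 3587 CPM), TPT1 (3467 CPM) and EEF1D (1617 CPM), reached 18248 CPM at the highest and 16066 CPM at the lowest, a ratio of 1.14 with and without HTO3/HTO9. The 30 ribosome biogenesis genes ranged more widely, with 8863 CPM in HTO1/HTO10 and 4223 CPM in HTO3/HTO9, a ratio of 2.1 (1.96 without HTO3/HTO9). NPM1 ranged 2.35-fold (1.85-fold without HTO3/HTO9) and NCL 2.63-fold (2.57-fold) on the log2(CPM + 10) scale, against 1.29-fold for NOP10, a subunit of the particle that modifies uridines in rRNA. The 78 genes of the mitochondrial ribosome, led by MRPS24 (416 CPM), MRPL52 (390 CPM) and MRPL12 (314 CPM), had a ratio of 1.52 (1.44 without HTO3/HTO9). The 4 ribosomal genes outside the naming pattern, among them RACK1 (2654 CPM) and FAU (2141 CPM), had a ratio of 1.09.

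**Figure D1:**
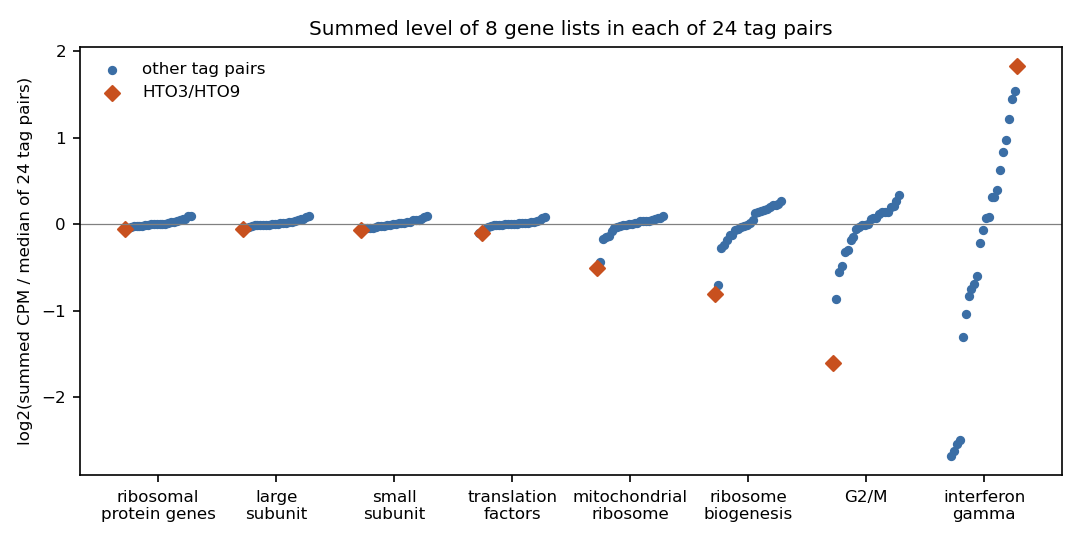
Summed level of 8 gene lists in each of the 24 tag pairs (points; diamond, HTO3/HTO9), as log2 of the summed CPM over the median of the tag pairs. The ribosomal protein genes and both subunits span a 1.11-fold range or close to it, while biogenesis genes span 2.1-fold and interferon gamma-induced genes 22.6-fold.

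Large and small subunit genes kept a nearly fixed proportion. Summed CPM of large subunit genes was 1.42 times that of small subunit genes in HTO3/HTO10, the highest, with a median of 1.40 and a lowest value of 1.36 in HTO6/HTO8. The highest proportion was therefore 1.05 times the lowest. Over the 24 tag pairs the proportion had r = 0.52 and rho = 0.74 with the summed level of biogenesis genes, and r = 0.87 without the 2 tag pairs farthest from the median of that level. Other measures moved with the proportion as well, with r = -0.64 and rho = -0.68 for interferon gamma-induced genes, r = -0.61 and rho = -0.65 for the median mitochondrial share, r = 0.43 and rho = 0.69 for G2/M genes, and r = 0.42 and rho = 0.67 for the median depth. Without the 2 tag pairs farthest from the median of each measure, r was -0.62, -0.81, 0.85 and 0.80, in the same order. The part of these measures in the proportion was not tested. Here and below, such correlations describe tag pairs that shared 1 pool, the same libraries and, by design, doses and times.

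The summed level itself followed the translation factors most closely, with r = 0.73 and rho = 0.63 over the 24 tag pairs, and r = 0.72 without the 2 farthest. Its correlation was weak with the interferon gamma-induced genes (r = -0.13, rho = -0.03), with G2/M genes (r = 0.14, rho = -0.07) and with the median mitochondrial share (r = -0.09, rho = -0.02). Within tag pairs, the ribosomal protein share of a single cell's UMIs had a 10th percentile of 14.0% to 16.8%, a median of 17.5% to 19.7% and a 90th percentile of 20.4% to 22.7%.

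The members differed widely in level and little in range. Each UMI stands for 1 captured 3′ end, so these levels need no correction for gene length. RPLP1, an acidic protein of the stalk that recruits elongation factors, had the highest mean (7852 CPM), followed by RPS2 (5603), RPS14 (5401), RPL8 (5204), RPS18 (4701) and RPS12 (4585 CPM). The lowest of the 82 was RPL39L, a paralogue of RPL39 known from testis, with a mean of 76.1 CPM. RPS10, at 130 CPM, was the only gene without an L paralogue name among the 4 lowest, which also held RPS27L (160 CPM) and RPL7L1 (178 CPM).

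A range of 1.5-fold or more over the tag pairs, on the log2(CPM + 10) scale, was reached by 5 of the 82 members (6.10%), against 72.6% of the 5767 genes of the table that averaged 20 CPM or more. A range of 2-fold or more was reached by 3 members (3.66%), against 26.1% of those genes. The median range was 1.23-fold for the members and 1.67-fold for all genes. Counting error widens the range of low genes, and most members are abundant. Among genes that averaged 1000 CPM or more, a limit chosen after the data were seen, 1 of 70 members and 42 of 70 other genes reached 1.5-fold.

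Members were set apart by their share of all ribosomal protein UMIs, which removes a common rise or fall. The highest share was less than 1.2 times the lowest in 48 of the 82 members, and the median of this ratio was 1.18. RPL8 had the narrowest share, with a ratio of 1.07, followed by RPL34 and RPL35 (1.08 each). The ratio was at least 1.5 in 6 members, among them the paralogues RPL22L1, RPL26L1, RPL7L1 and RPS27L and the small subunit gene RPS26. Among those just inside that line were RPL7L1 (1.90) and RPS27L (1.56), and the 3 just outside were RPL14 (1.44, and 1.21 without HTO3/HTO9), RPL5 (1.40, and 1.32 without it) and RPL39L (1.37 either way). HTO3/HTO9 had the lowest share of 23 members and the highest of 21, and without it 4 members reached 1.5. Without HTO5/HTO8, RPL7L1 had a ratio of 1.48.

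**Figure D2:**
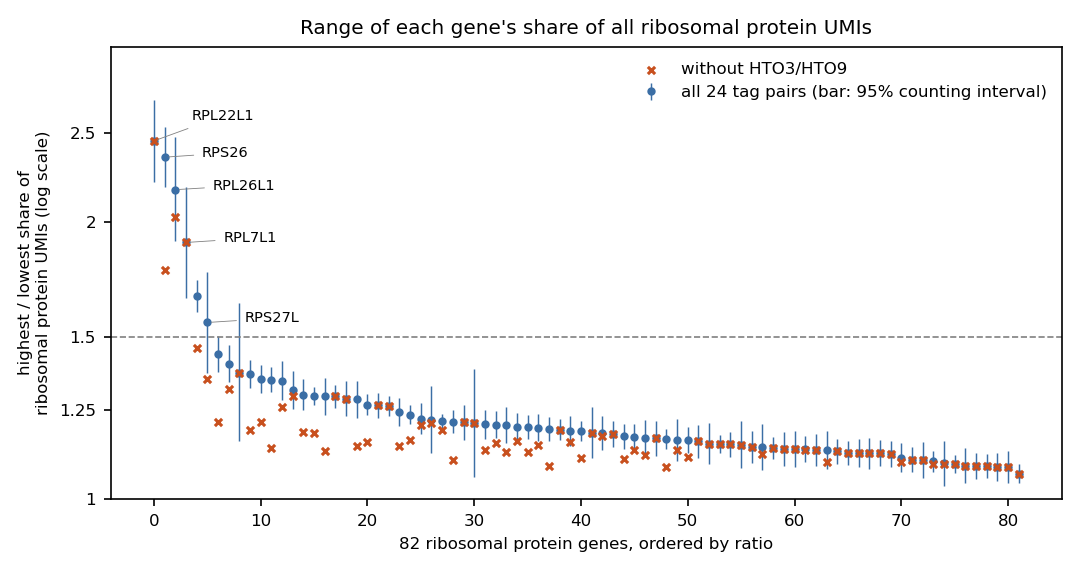
For each of the 82 genes, the highest share of all ribosomal protein UMIs in a tag pair over the lowest (log axis; bars, 95% conditional binomial intervals; crosses, without HTO3/HTO9; dashed line, 1.5). The labelled genes RPL22L1, RPS26, RPL26L1, RPL7L1 and RPS27L lie above 1.5, while the median gene lies at 1.18.

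RPL22L1 (chr3:170864875-170870483, minus strand, GENCODE 29 on GRCh38) is the paralogue of RPL22, an RNA-binding protein of the large subunit. Its level was highest in HTO4/HTO10 at 424 CPM, had a median of 299 CPM and was lowest in HTO5/HTO8 at 187 CPM. The ratio of its highest to its lowest share was 2.45 (interval 2.21 to 2.72), and 1.73 without HTO5/HTO8. RPL22 itself ran up to 900 CPM from 731 CPM, with a share ratio of 1.14, so the paralogue moved and its partner hardly did. At the RefSeq start sites used for the windows above, both genes carry the tract.

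RPL26L1 (chr5:172958729-172969771) is the paralogue of RPL26, a large subunit protein near the exit of the peptide tunnel. It had 278 CPM in HTO1/HTO10, the highest, a median of 242 CPM and 125 CPM in HTO3/HTO9, the lowest. Its share ratio was 2.17 (interval 1.91 to 2.47), and 2.03 without HTO3/HTO9. RPL26, with 2218 CPM at the highest and 1985 CPM at the lowest, had a ratio of 1.12. HTO3/HTO9 and HTO5/HTO8 had the lowest shares of RPL26L1, 0.0709% and 0.0758% of ribosomal protein UMIs, below 0.102% in the next tag pair.

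RPL7L1 (chr6:42879618-42889925) is related to RPL7, and its yeast relative Rlp7 acts in assembly of the large subunit. Its level ran up to 217 CPM in HTO7/HTO10 from 119 CPM in HTO5/HTO8, with a median of 179 CPM. RPL7 had 2992 CPM in HTO8/HTO10 and 2038 CPM in HTO3/HTO9, and a share ratio of 1.37 that was 1.19 without HTO3/HTO9. RPS27L (chr15:63125872-63158021, minus strand), a paralogue of RPS27 and a known p53 target gene, was highest in HTO3/HTO9 at 199 CPM, with a median of 160 CPM and a lowest value of 134 CPM in HTO5/HTO9. Without HTO3/HTO9 its share ratio was 1.35, so its place above the line rested on that tag pair. RPL39L, the last paralogue with at least 20 CPM, had 92.0 CPM at the highest and 64.1 CPM at the lowest.

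RPS26 (chr12:56041351-56044697) encodes a protein that touches the mRNA where it leaves the small subunit. It had 938 CPM in HTO7/HTO10, the highest, a median of 834 CPM and 384 CPM in HTO3/HTO9, the lowest. Its share ratio of 2.35 (interval 2.18 to 2.54) was 1.78 without HTO3/HTO9. HTO5/HTO8 had the next lowest share of RPS26, 0.289% of ribosomal protein UMIs against 0.218% in HTO3/HTO9 and a highest value of 0.513% in HTO3/HTO8.

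The shares of RPL26L1, RPS26, RPL7L1 and RPL22L1 rose with the summed level of biogenesis genes over the 24 tag pairs. The correlation was r = 0.95 and rho = 0.91 for RPL26L1, 0.95 and 0.92 for RPS26, 0.86 and 0.86 for RPL7L1, and 0.82 and 0.85 for RPL22L1. Without the 2 tag pairs farthest from the median of the biogenesis level, r was 0.87 for RPL26L1, 0.90 for RPS26, 0.80 for RPL7L1 and 0.83 for RPL22L1. RPS27L had r = -0.44 and rho = -0.25, and r = 0.12 without those 2. The median depth per cell and the mitochondrial share moved with these shares as well, with r = 0.90 and r = -0.87 for RPL26L1, and 0.88 and -0.81 for RPS26. G2/M genes (r = 0.92 for each) and mitochondrial ribosome genes (r = 0.83 for RPL26L1 and 0.92 for RPS26) moved with them too, and interferon gamma-induced genes moved the opposite way (r = -0.66 for RPL26L1 and -0.56 for RPS26). For RPL7L1 and RPL22L1, in that order, r was 0.67 and 0.73 with the median depth and -0.77 and -0.68 with the mitochondrial share. It was 0.72 and 0.65 with G2/M genes, 0.82 and 0.61 with mitochondrial ribosome genes, and -0.56 and -0.54 with interferon gamma-induced genes. For RPL22L1, rho was 0.86 with the median depth, against 0.85 with biogenesis genes. The part of these measures in the relation to biogenesis genes was not tested.

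**Figure D3:**
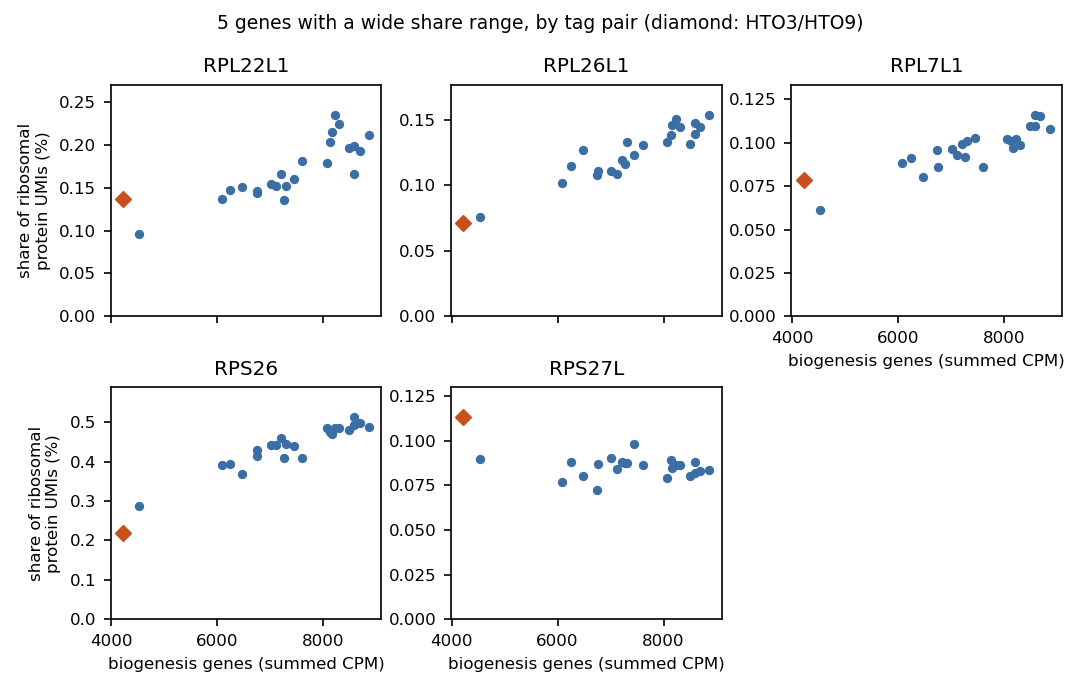
Share of all ribosomal protein UMIs (percent, axis from 0) of 5 genes with a wide range against the summed level of 30 ribosome biogenesis genes (CPM), 1 point for each of 24 tag pairs (diamond, HTO3/HTO9). The shares of RPL22L1, RPL26L1, RPL7L1 and RPS26 are higher where biogenesis genes are higher; RPS27L shows no such order.

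The stalk and the 5S particle held members that differed from each other. RPLP0, the base of the stalk, had 3122 CPM in HTO2/HTO9 and 2154 CPM in HTO3/HTO9, whereas RPLP2, its acidic partner, had 3597 CPM in HTO3/HTO9 and 2693 CPM in HTO7/HTO8. RPLP1, the other acidic stalk protein, was lowest in HTO3/HTO9 as well, at 6753 CPM. HTO3/HTO9 thus had the lowest RPLP0 and RPLP1 and the highest RPLP2. Without it the share ratios were 1.14 for RPLP0 and 1.21 for RPLP2. RPL5 and RPL11 bind 5S rRNA together and, when free, the p53 regulator MDM2. RPL5 had 1707 CPM in HTO7/HTO10 and 1142 CPM in HTO3/HTO9, a share ratio of 1.40, while RPL11 had a ratio of 1.09. The remaining paralogue partners were steadier, with share ratios of 1.16 for RPL3, 1.197 for RPL10, 1.13 for RPS4X, 1.28 for RPS27 and 1.29 for RPL39. Without HTO3/HTO9 those of RPS27 and RPL39 were 1.14 and 1.13, and that of RPL10 was 1.12.

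Over all cells with a tag pair, RPS24, a small subunit protein, had the highest variance relative to the Poisson variance among the members. Its variance over cells was 9.42 times the Poisson variance at each cell's depth, and 9.36 times within tag pairs, against a median of 2.45 over the members and a lowest value of 1.06. RPS14 (6.39 times) and RPL23 (6.37 times) followed. Without the cells with at least 5 UMIs of KRT81, described below, the variance of RPS24 was 2.55 times the Poisson variance, against a median of 2.22 over the members. RPL23 (5.86 times) and RPS14 (5.68 times) then had the highest ratios. At an equal relative spread this ratio is larger for more abundant genes, so it does not rank members of unlike level by relative spread. Over tag pairs RPS24 was nearly level, with 1431 CPM at the highest and 1168 CPM at the lowest, and nearly all of its excess variance lay within tag pairs.

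Cells with at least 5 UMIs of KRT81, a hair keratin gene, had a ribosomal protein pattern of their own. These 139 KRT81-high cells were compared with the 4815 cells with at most 1 KRT81 UMI in the same tag pairs, using sums of both classes in the 22 tag pairs with at least 3 cells of each. The KRT81-high cells had a median of 17366 UMIs and 5.72% mitochondrial UMIs, against 13194 UMIs and 10.6% in the other cells. The 8 epithelial markers were all detected in both classes, with a median sum of 4359 CPM (2637 to 5982) in KRT81-high cells and 3231 CPM (1870 to 3689) in the other cells. KRT18 gave 4569 of the 11006 UMIs of these markers in KRT81-high cells and 103411 of 204586 in the other cells. Of the 10 T cell markers, 4 were detected in each class, with a sum of 28.7 to 134 CPM in KRT81-high cells, where TRBC2 gave 191 of 198 UMIs, and of 0 to 1.13 CPM in the other cells. CD3E, CD3G, CD2 and PTPRC were at 0 in both classes, and CD3D was at 0 in KRT81-high cells. The part of depth and mitochondrial share in the results that follow was not tested.

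The summed ribosomal protein level was similar in the 2 classes, with a median of 194082 CPM (166552 to 214359) in KRT81-high cells and 182982 CPM (175370 to 195655) in the other cells. It was higher in KRT81-high cells in 17 of 22 tag pairs, with a median ratio of 1.04. Single members nevertheless rose and fell strongly. By edgeR's quasi-likelihood test with tag pair as a block and Benjamini-Hochberg adjustment over 8055 genes, 29 of 82 members rose and 42 fell at an adjusted p under 0.05, against 30.7% of all genes tested that rose and 34.8% that fell. The share of members that rose was thus near that of all genes tested. In the large subunit 17 of 50 rose and 23 fell, and in the small subunit 12 of 32 rose and 19 fell. Both subunits held genes of either direction. With no filter on low counts, the median member had a log2 fold change of -0.47, against -0.14 with the filter. There 14 members rose and 54 fell, and the share over all genes was not computed for that setting. The median member was at -0.22 in DESeq2 and -0.23 with median-of-ratios size factors in edgeR. It was at -0.01 under a stricter filter on cells (at least 2000 genes, at most 10% mitochondrial UMIs). Its size thus depended on the scaling and on that filter. The median member was lower in each of these settings, while the summed CPM was higher in 17 of 22 tag pairs. The direction of the members as a group thus depended on the measure.

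RPS24 rose most in KRT81-high cells. It had 4694 CPM in the median tag pair (3469 to 6105) in KRT81-high cells and 1184 CPM (1019 to 1254) in the other cells. The classes did not overlap, and the log2 fold change was 1.84 ± 0.06 (SE, edgeR adjusted p = 2.4e-41), or 3.59-fold. RPL22 had 1771 CPM (1392 to 2026) in KRT81-high cells and 776 CPM (698 to 878) in the other cells, with a log2 fold change of 1.01 ± 0.05 (edgeR adjusted p = 3.5e-27). RPS26 rose by 0.84 ± 0.06. RPL37, RPL32, RPS6, a substrate of S6 kinase, and RPS28 were also among the strongest rises, with log2 fold changes of 0.73, 0.70, 0.67 and 0.66, and each gene named here was higher in 22 of 22 tag pairs.

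RPL21 fell most, with 406 CPM in the median tag pair (300 to 693) in KRT81-high cells and 942 CPM (827 to 1010) in the other cells. Its log2 fold change was -1.21 ± 0.07 (edgeR adjusted p = 8.9e-26), and the classes did not overlap. RPL19 (-1.19), RPL23 (-1.17), RPL27A (-1.05), RPS20 (-1.02), RPS14 (-1.02), RPS3 (-0.97) and RPS13 (-0.95) followed, each lower in KRT81-high cells in 22 of 22 tag pairs. RPS14, a gene in the region deleted in the 5q deletion syndrome of the marrow, had 3032 CPM in KRT81-high cells and 5449 CPM in the other cells in the median tag pair.

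Partners within the ribosome and within paralogue pairs parted in KRT81-high cells. RPLP1 and RPLP2 fell, with log2 fold changes of -0.72 ± 0.05 each, while RPLP0 had 0.18 ± 0.05 and, with no filter on low counts, passed the test in the lower direction, as did RPL3. RPL5 rose by 0.39 ± 0.05 and RPL11 fell, with a log2 fold change of -0.58 ± 0.05. RPL22L1 fell (-0.76 ± 0.08, lower in 19 of 22 tag pairs) where RPL22 rose, and RPS27L fell (-0.55 ± 0.10, lower in 17) where RPS27 rose by 0.58 ± 0.05. RPL26L1 and RPL26 both fell, with -0.50 ± 0.08 and -0.53 ± 0.06. RPL39 rose by 0.59 ± 0.05, while RPL39L had 0.06 ± 0.12 and did not pass the test. RPL7 and RPL7L1 did not pass either, with -0.08 ± 0.05 and -0.0046 ± 0.085. Of the 19 translation factors, 5 rose and 13 fell, and of the 30 biogenesis genes, 6 rose and 11 fell.

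**Figure D4:**
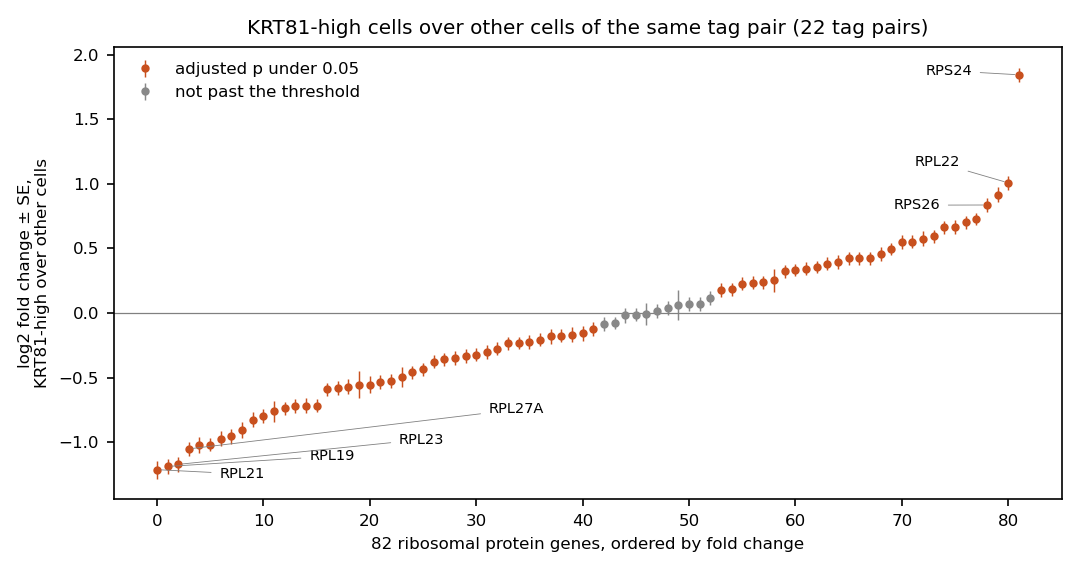
Log2 fold change (± SE) of the 82 genes in KRT81-high cells over other cells of the same tag pair, from edgeR over 22 tag pairs, ordered by size. RPS24 stands highest at 1.84 and RPL21 lowest at -1.21, with 29 genes called higher and 42 lower.

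Cells within a culture also differed by how strongly they expressed interferon gamma-induced genes. In each tag pair, the 25% of cells with the highest share of UMIs in 27 such genes (1318 cells in all, 10823 CPM of these genes) were compared with the 25% with the lowest share (1318 cells, 4730 CPM), so both classes came from the same culture. The classes had like depth, with medians of 13144 UMIs in the high class and 13119.5 in the low class, and like mitochondrial shares, 10.7% in the high class and 10.3% in the low class. The summed ribosomal protein level was slightly lower in the high class, with a median of 178922 CPM (166337 to 192388) against 189830 CPM (179833 to 207597) in the low class. The median ratio was 0.926, and the level was higher in the high class in 1 of 24 tag pairs.

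Of the 82 members, 2 rose and 38 fell in the high class (edgeR's quasi-likelihood test, tag pair as a block, adjusted over 7275 genes), against 18.2% of all genes tested that rose and 16.1% that fell. The median member had a log2 fold change of -0.06 and the median of all genes tested one of 0.01. With cells ranked after thinning each to 3000 UMIs, or with classes split at the median, the median member was at -0.04. RPS24 fell most (-0.38 ± 0.04), with 1163 CPM in the high class and 1554 CPM in the low class in the median tag pair. RPS26 (-0.24 ± 0.03), RPL5 (-0.20 ± 0.02), RPL7L1 (-0.19 ± 0.04), RPL22 (-0.18 ± 0.03), RPL23, RPS28 and RPL37 (-0.16 each) followed. RPS26, RPL5, RPS28 and RPL37 were lower in the high class in 24 of 24 tag pairs. The 2 that rose were RPS27L (0.31 ± 0.05, higher in 22 of 24 tag pairs) and RPS14 (0.15 ± 0.03, higher in 19).

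KRT81-high cells were unevenly spread over these classes, with 7 of 1318 cells (0.531%) in the high class and 100 of 1318 (7.59%) in the low class, and the T cell marker sum, led by TRBC2, was 0 to 3.54 CPM in the high class and 0 to 23.4 CPM in the low class. Without them, 2 members rose and 45 fell, and the share over all genes was not computed for that split. The log2 fold change of RPS24 was then -0.10, that of RPS26 -0.14 and that of RPS14 0.07, while RPL22 (-0.05) no longer passed the test. RPS27L (0.28) and RPL7L1 (-0.20) were little changed by leaving those cells out. Biogenesis genes moved in the same direction as the members, with 23 of 30 lower in the high class, and 6 of 19 translation factors fell while 2 rose. Without tag pair as a block, 25 members fell, again with no share over all genes computed.

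Cells rich in G2/M genes had a lower share of ribosomal protein RNA. The 25% of cells with the highest share of 40 G2/M genes in each tag pair (1318 cells, 11331 CPM of these genes) were compared with the 25% with the lowest (1318 cells, 2809 CPM). The high class had a median depth of 14719 UMIs per cell and the low class 11746.5. The summed level had a median of 179492 CPM (171589 to 188973) in the high class and 190538 CPM (175229 to 204629) in the low class. It was lower in the high class in 24 of 24 tag pairs, with a median ratio of 0.930. The part of depth in this difference was not tested.

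Nearly all members took part in the difference. In edgeR's quasi-likelihood test, 78 of 82 members fell and 2 rose at an adjusted p under 0.05, against 24.1% of the 7147 genes tested that fell and 18.8% that rose. The median log2 fold change was -0.16 for the members and -0.03 for all genes tested. The median member was at -0.13 with cells ranked after thinning to 3000 UMIs and at -0.09 with classes split at the median. All 32 small subunit genes tested fell, as did 46 of 50 large subunit genes. RPS24 (-0.38 ± 0.04), RPL22 (-0.33 ± 0.03), RPL32 (-0.29 ± 0.02), RPS27L (-0.27 ± 0.06), RPL24 (-0.25 ± 0.02), RPS26 (-0.24 ± 0.03) and RPL14 (-0.23 ± 0.02) were among those that fell most.

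RPS24 had 1195 CPM in the high class and 1479 CPM in the low class in the median tag pair. KRT81-high cells made up 9 of 1318 cells (0.683%) of the high class and 62 of 1318 (4.70%) of the low class, and without them RPS24 had -0.20 and RPL22 -0.27. The 2 members that rose were paralogues, RPL39L (0.22 ± 0.06, edgeR adjusted p = 0.0049), with 86.5 CPM in the high class and 69.1 CPM in the low class, and RPL7L1 (0.16 ± 0.04, edgeR adjusted p = 0.0013), with 192 CPM in the high class and 163 CPM in the low class. RPL39L was higher in the high class in 20 of 24 tag pairs and RPL7L1 in 21. Under the stricter filter on cells RPL39L (0.11) did not pass, and with classes split at the median RPL7L1 (0.07) did not. RPL22L1 (0.03 ± 0.05) and RPL26L1 (-0.07 ± 0.04) did not pass the test. Of the translation factors, 10 of 19 fell and 1 rose. Of the biogenesis genes, 4 of 30 fell and 4 rose, with no excess of falls over the 24.1% of all genes tested. The difference between lists was not tested.

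**Figure D5:**
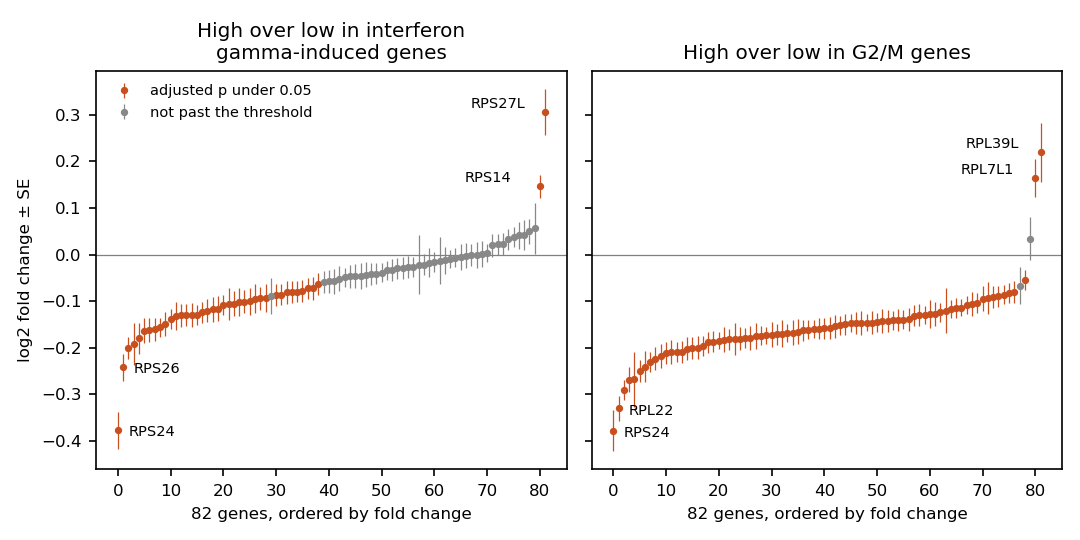
Log2 fold change (± SE) of the 82 genes between cells high and low in interferon gamma-induced genes (left) and in G2/M genes (right) of the same tag pair, from edgeR over 24 tag pairs, each panel ordered by size. On the left 38 genes are called lower and 2 higher (RPS27L, RPS14); on the right 78 are called lower and 2 higher (RPL39L, RPL7L1).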

How the data were processed

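The 4 GEO samples were 2 gene-expression and 2 hashtag libraries of 1 pool, all unassigned to a group because each holds every condition. The deposited values were UMI counts per gene and barcode, made by the authors with Cell Ranger (version 5.0.1 per the file headers, version 2.1.1 and GRCh38 per the submitters' processing notes). Kept cells had 1000 or more genes and a mitochondrial share of up to 20%, doublets were not removed beyond the tag rule, and a tag pair was assigned where both top hashtag counts were at least 3 times the next. Counts were summed per tag pair and divided by the total to give CPM. Intervals were exact Poisson or conditional binomial intervals at 95%. Tag pairs have no order or dose here and are not replicates of one condition.

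Cell classes were tested on counts summed per tag pair and class with edgeR 4.0.16 in R 4.3.3 (TMM, filterByExpr, quasi-likelihood test, tag pair as a block, Benjamini-Hochberg threshold 0.05). The block is the culture that both classes came from. The 19 cells with 2 to 4 KRT81 UMIs were left out of the KRT81 comparison. A simulation with 200 genes changed was run for each comparison as a check of the scripts. DESeq2 1.42.0 and other settings were alternatives. The p-values rest on how far the difference between the classes varied from tag pair to tag pair within 1 experiment. Tag pairs differ in dose or time, so this variation includes any effect of those on the difference. The members, lists and tests were chosen with earlier results of these data known. Named genes were the 6 members with the highest mean, the 10 with the widest share range, stalk, 5S-particle, paralogue and partner genes except where not reported here, the 3 genes on each side of the 1.5 line, the 8 members called with the largest change in each direction, and the 3 most abundant genes of other lists; further genes were chosen after their values were seen. Start sites came from RefSeq (GRCh38.p14) and gene coordinates from GENCODE 29.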

Additional observations from a re-analysis of the deposited data

How the results depend on the processing

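The highest over the lowest summed level was 1.09 under a stricter filter on cells (at least 2000 genes, at most 10% mitochondrial UMIs), 1.17 over all barcodes with a tag pair, 1.13 with each cell weighted equally, 1.12 over UMIs outside mitochondrial genes and 1.23 with median-of-ratios size factors, against 1.11 as reported. Leaving out each tag pair in turn gave 1.10 (without HTO3/HTO9) to 1.11, and for the large over small subunit proportion 1.04 to 1.05. The number of members with a share ratio of at least 1.5 was 4 to 6 when each tag pair was left out. Members with a range of 1.5-fold or more numbered 8 under the stricter filter, 8 with median-of-ratios size factors and 1 among genes of at least 1000 CPM, against 5; leaving out each tag pair gave 5 each time. The percentage of all genes with that range was 65.6 to 72.4 when each tag pair was left out and 30.7 among genes of at least 1000 CPM, members included. Without KRT81-high cells, an alternative chosen after the data were seen, the median member's variance over cells was 2.22 times the Poisson variance, against 2.45. In the KRT81 comparison 14 members rose without a filter on low counts. For interferon gamma-induced genes, 6 members rose under the stricter filter and 25 fell with no replicate block. For G2/M genes, 1 member rose under the stricter filter and 1 with classes split at the median. In the class comparisons, shares over all genes were computed for the main setting only. The other 197 settings of these results stayed within a set tolerance of the reported value. For the summed level and the subunit proportion this was the 95% counting interval. For counts and percentages it was up to 1.5-fold either way. Of the up to 8 members called with the largest change in each direction of a class comparison, none changed direction. RPLP0 and RPL3, which are not among those, did so in the KRT81 comparison with no filter on low counts. In that setting the median member had a log2 fold change of -0.47, against -0.14 as reported. The direction of the other named members was not tallied over the settings. The causes of changes between settings were not tested. Depth limits the paralogues most, since the rarest, RPL39L, had 130 UMIs in its lowest tag pair.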

Other observations

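The shares of RPS19 and RPS7, chosen after their values were seen, had the highest and the lowest Pearson r of the members with the interferon gamma-induced genes. The share of RPS19, a small subunit protein known from Diamond-Blackfan anaemia, had r = 0.80 and rho = 0.94 with the log2 level of interferon gamma-induced genes over the 24 tag pairs, and r = 0.83 without HTO3/HTO9. RPS19 had 4695 CPM in HTO3/HTO9, the highest, a median of 4039 CPM and 3804 CPM in HTO6/HTO10, the lowest, and its share ratio was 1.27 (1.154 without HTO3/HTO9). RPS7 went the opposite way (r = -0.81, rho = -0.81, r = -0.80 without HTO3/HTO9), with 2956 CPM in HTO2/HTO9, the highest, a median of 2619 CPM and 2281 CPM in HTO3/HTO9, the lowest. Within tag pairs, cells high in interferon gamma-induced genes had a log2 fold change of -0.0016 ± 0.024 for RPS19 in edgeR's test, which did not pass.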
